A study of Mus musculus with 11 samples.

Results

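The nuclear-encoded genes of the mitochondrial respiratory chain were followed across astrocytes of 4 brain regions. Members were taken by gene symbol: the numbered Nduf subunits of complex I, the 4 Sdh genes of complex II, the Uqcr genes of complex III, the Cox genes numbered from 4 to 8 of complex IV and the Atp5 genes of complex V. The rule found 82 of the 24421 genes in the files, of which 35 belong to complex I, 4 to complex II, 8 to complex III, 19 to complex IV and 16 to complex V. Ndufa4 was counted with complex IV, to which its protein is now assigned, so complex IV holds 18 Cox genes and Ndufa4. Astrocytes were isolated by fluorescence-activated cell sorting on eGFP, driven from a bacterial artificial chromosome by the Aldh1l1 promoter, in mice aged 16 weeks on a C57BL6 background, of both sexes. RNA was sequenced from the olfactory bulb (OB, 3 samples), hippocampus (HC, 3 samples), cortex (CX, 2 samples) and brainstem (BS, 3 samples). All groups carried the same reporter and none was treated, so brain region was the only labelled difference between groups. The labels do not give the sex of each sample. Nothing in the labels says whether samples of a region came from separate or pooled animals, and p-values therefore measure the spread between these samples.

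The respiratory chain passes electrons from NADH through complex I, or from succinate through complex II, to ubiquinone, then through complex III and cytochrome c to complex IV, where oxygen is reduced. Complexes I, III and IV pump protons across the inner mitochondrial membrane, and complex V, the ATP synthase, uses the returning protons to make ATP. Most subunits are encoded in the nucleus and are present in every tissue, while several complex IV subunits exist as pairs of a ubiquitous form and a form known from heart, skeletal muscle, lung or testis. Astrocytes are known for active glycolysis but also hold a complete respiratory chain.

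Values are reads per gene divided by a size factor for the sample, called normalised reads below. Libraries held between 2830746 and 14151670 reads in genes, and 1 read was worth between 0.367 and 2.10 normalised reads, so deeper libraries gave finer values. The 82 genes took between 0.614% and 0.971% of the reads of a library. The 45S ribosomal RNA precursor Rn45s took between 0.966% and 2.93% of reads in OB and HC but between 18.0% and 25.6% in CX and BS. The astrocyte gene Aldh1l1 was present in all samples, from 542 to 1317 normalised reads. Of 10 astrocyte markers 2 differed among regions, Gfap and Slc1a3, and the summed level of all 10 was 234740 to 280692 in OB, 274406 to 466755 in HC, 561412 to 636418 in CX and 97870 to 287214 in BS. Markers of choroid plexus epithelium also followed region. All 11 of 11 such markers differed among regions, and their summed level was 2522 to 3069 in OB, 106583 to 221013 in HC, 3427 to 8436 in CX and 77262 to 369458 in BS. Folr1 and Slc4a5 of that list were at 0 in all OB samples. Of the oligodendrocyte markers 6 of 8 differed, with summed levels of 9491 to 15730 in OB, 18324 to 39458 in HC, 18857 to 20295 in CX and 51519 to 88511 in BS. Of the neuron markers 9 of 12 differed, with summed levels of 1976 to 3561 in OB and 3011 to 4165 in BS. In such bulk samples, fewer cells of a type and less RNA per cell cannot be told apart.

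Those genes that differed among regions are described first, with the sequence upstream of each. GENCODE places Atp5b, the catalytic beta subunit of the F1 part of complex V, at chr10:128083273-128090391 (GRCm38, plus strand). Atp5g1, one of the genes for the c subunit that forms the rotating ring of complex V, lies at chr11:96068852-96075670 on the minus strand. Cox7a1, the heart and muscle form of complex IV subunit 7a, lies at chr7:30184144-30186078 on the plus strand. Cox8b, a muscle form of complex IV subunit 8, lies at chr7:140898945-140900446 on the minus strand. The sequences below run 5′ to 3′ and end before the first annotated base of the gene. They come from RefSeq (GRCm38.p6) and are shown because these genes carry the regional differences. Cox7a2 and Cox8a, the ubiquitous partners of Cox7a1 and Cox8b, stand beside them. Capitals mark CCAAT boxes and GC boxes on either strand.
Atp5b, chr10:128083057-128083272, plus strand: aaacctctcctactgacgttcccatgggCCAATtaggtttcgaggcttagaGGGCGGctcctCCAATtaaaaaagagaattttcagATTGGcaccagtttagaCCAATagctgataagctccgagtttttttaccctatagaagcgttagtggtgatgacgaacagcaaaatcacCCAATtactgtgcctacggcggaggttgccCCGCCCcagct
Atp5g1, chr11:96075671-96075881, minus strand: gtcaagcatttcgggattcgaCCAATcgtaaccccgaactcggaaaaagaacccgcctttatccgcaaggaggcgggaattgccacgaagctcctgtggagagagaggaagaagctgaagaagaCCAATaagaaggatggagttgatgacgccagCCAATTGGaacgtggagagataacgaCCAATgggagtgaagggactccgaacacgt
Cox7a1, chr7:30183921-30184143, plus strand: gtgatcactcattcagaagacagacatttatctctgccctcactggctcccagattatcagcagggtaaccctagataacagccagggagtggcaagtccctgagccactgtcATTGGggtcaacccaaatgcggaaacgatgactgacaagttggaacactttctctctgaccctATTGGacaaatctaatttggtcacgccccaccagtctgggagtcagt
Cox7a2, chr9:79759879-79760103, minus strand: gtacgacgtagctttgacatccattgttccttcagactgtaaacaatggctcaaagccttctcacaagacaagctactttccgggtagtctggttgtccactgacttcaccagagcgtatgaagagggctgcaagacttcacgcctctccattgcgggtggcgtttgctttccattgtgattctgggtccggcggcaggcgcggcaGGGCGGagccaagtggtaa
Cox8b, chr7:140900447-140900696, minus strand: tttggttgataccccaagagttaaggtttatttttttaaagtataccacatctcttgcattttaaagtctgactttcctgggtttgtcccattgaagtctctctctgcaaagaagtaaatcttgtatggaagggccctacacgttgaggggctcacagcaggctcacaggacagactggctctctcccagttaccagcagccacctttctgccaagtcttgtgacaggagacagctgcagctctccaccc
Cox8a, chr19:7217617-7217866, minus strand: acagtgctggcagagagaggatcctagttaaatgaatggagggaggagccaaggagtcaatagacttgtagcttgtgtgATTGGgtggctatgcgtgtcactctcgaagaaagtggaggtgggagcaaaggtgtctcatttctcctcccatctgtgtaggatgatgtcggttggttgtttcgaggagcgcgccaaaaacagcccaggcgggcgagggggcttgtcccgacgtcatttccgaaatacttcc

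These windows were described by their CpG dinucleotides and by short motifs. Over the 250 bases before the RefSeq start, Atp5b held 14 CpG dinucleotides, Atp5g1 15, Cox7a2 14 and Cox8a 11. Cox7a1 held 4 and Cox8b 1, against a median of 14 over the 66 of 82 members with such a window. Low counts were not limited to the muscle forms, since Ndufc2 held 4 and Cox7b and Uqcr10 held 5. CCAAT, counted on both strands, occurred 5 times in Atp5b and 5 times in Atp5g1, where a pair of matches on opposite strands overlap in the letters CCAATTGG. It occurred 2 times in Cox7a1, 1 time in Cox8a and not in Cox8b or Cox7a2. Atp5b and Atp5g1 were the 2 members with at least 5 matches, a number reached by 0.387% of the 10845 tested genes with a window. They were singled out after their values were known. At least 1 CCAAT was found in 43.9% of members and 36.0% of tested genes. GGGCGG, the GC box, was found in 34.8% and 59.0%, and TATAAA in 9.09% and 6.33%. For factors known to bind promoters of mitochondrial genes, GCGCATGCG (NRF1 type) was found in 9.09% of members and 2.90% of tested genes, CCGGAAG (ETS type) in 16.7% and 13.04%, AAGGTCA (ERR type) in 7.58% and 2.71%, and AAGATGGCG (YY1 type) in 0 of 66 members and 1.10% of tested genes. These are matches of letters and do not show binding.

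Few respiratory chain genes differed among the 4 regions. Of the 82 members 78 had enough reads to be tested. Cox4i2 and Cox6a2 had too few, and Cox8c and Ndufs5 were listed at 0 in every sample. By limma's moderated F test on log2(normalised reads + 1), 4 of 78 members (5.13%) differed among regions at an adjusted p under 0.05, namely Atp5b, Atp5g1, Cox7a1 and Cox8b. The same test called 16.5% of all 13875 genes. The median member spanned 0.42 on the log2 scale between its highest and lowest region, and the median gene 0.84. Such a span also grows with error, which was smaller for members. The median SE of the log2 fold change in OB was 0.19 for members and 0.35 for all genes. Genes of like level were not compared. None of the 34 tested genes of complex I, the 4 of complex II or the 8 of complex III was called, while 2 of 16 were called in complex IV and 2 of 16 in complex V. Without HC replicate 2 and CX replicate 2, the 2 libraries in which chain genes were lowest, 5 members were called. Without OB replicate 1 or without OB replicate 2 the count was 1, without BS replicate 3 it was 2, and without HC replicate 2 it was 7. The shares of all genes called with samples left out are not given here.

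**Figure D1:**
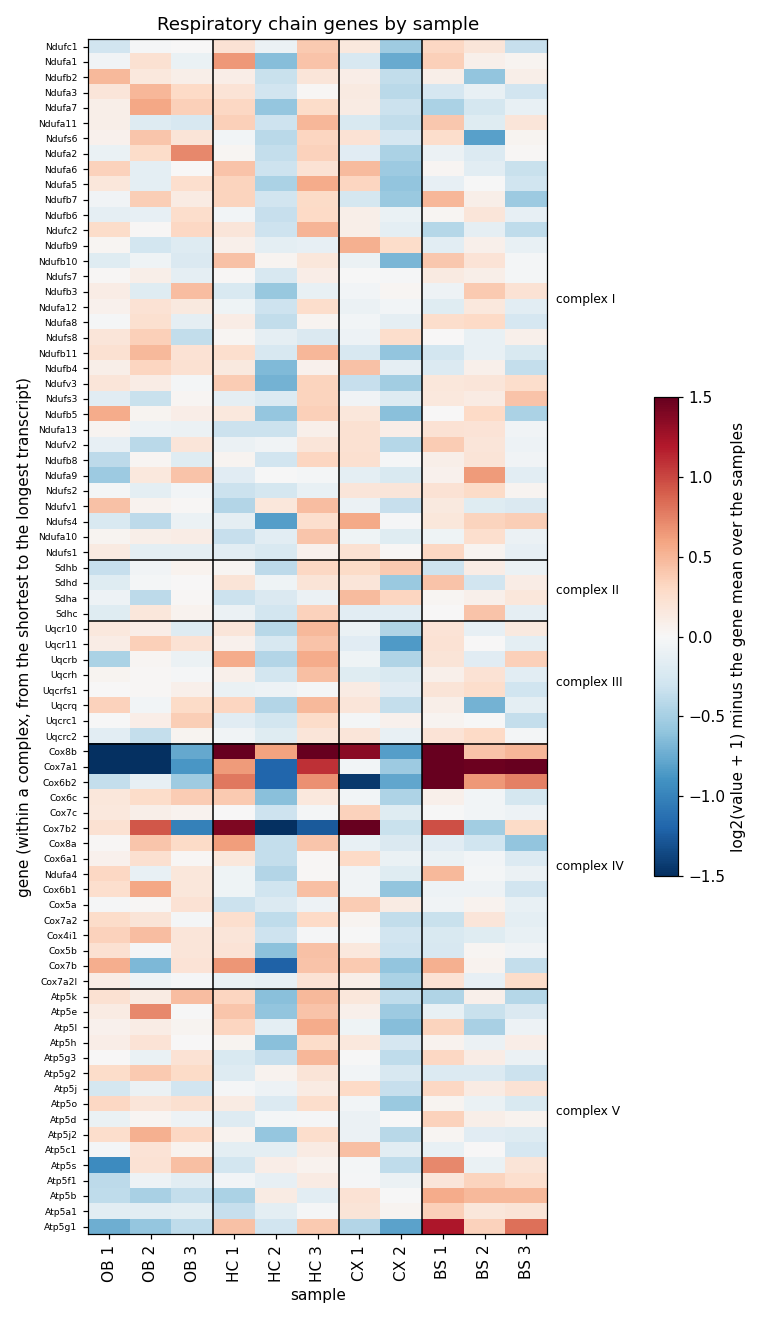
Each row is 1 of the 78 tested genes and each column 1 sample; colour gives log2(normalised reads + 1) minus the gene's mean over the samples, cut at 1.5 in either direction, with rows ordered by complex and transcript length. Most rows are pale, strong colours gather in Cox8b, Cox7a1, Cox6b2 and Cox7b2 of complex IV and Atp5g1 of complex V, and HC 2 and CX 2 are blue through most rows.

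Atp5b rose in BS. It was the most abundant member, with 4668, 4353 and 4749 normalised reads in OB, 4396, 6623 and 5491 in HC, 7111 and 6064 in CX, and 8979, 8582 and 8531 in BS. Every BS sample lay above every other sample, and the OB samples were close together at the low end, with HC replicate 1 among them. The regional means were 4590 ± 209 in OB, 5503 ± 1114 in HC, 6587 ± 740 in CX and 8697 ± 245 in BS (SD, n = 3, 3, 2 and 3). Only BS stood clear of its neighbour in that order, since HC overlapped with OB and with CX. Atp5b differed among regions (adjusted p = 0.0151, limma), a call lost without OB replicate 1, OB replicate 2 or BS replicate 3 (adjusted p from 0.0528 to 0.0603) and without the mean-variance trend (0.0557). In BS against the other regions its log2 fold change was 0.70 ± 0.19 (SE, adjusted p = 0.0429, limma), a 1.63-fold higher level. In OB against the others the log2 fold change was -0.57 ± 0.23, which did not pass (adjusted p = 0.205, limma). The BS call was lost without any of the OB or BS samples, without HC replicate 3 or without CX replicate 2, with log2 fold changes from 0.66 to 0.76 over all samples left out in turn. It was also lost by edgeR with TMM or RLE factors (adjusted p = 0.0561 and 0.0505), with scaling to total reads or by TMM factors, without a filter or the mean-variance trend, with the replicate block and with the length correction. The summed oligodendrocyte markers were likewise higher in every BS sample than elsewhere, at 51519, 62038 and 88511. Within CX the samples stood in the same order for that sum and for Atp5b, and within OB, HC and BS they did not. Mean sums were 32094 in HC and 19576 in CX, while mean Atp5b was lower in HC than in CX. The part of oligodendrocytes in the result was not tested.

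Atp5g1 also rose in BS. It had 333, 369 and 423 normalised reads in OB, 752, 453 and 728 in HC, 407 and 316 in CX, and 1286, 703 and 979 in BS. OB and CX samples were all low, BS samples high, and HC overlapped with BS because HC replicate 1 and HC replicate 3 lay above BS replicate 2. Atp5g1 had the lowest p of all members for a difference among regions (adjusted p = 0.0022, limma). In BS its log2 fold change was 1.09 ± 0.28 (SE, adjusted p = 0.034, limma). In OB it was -0.78 ± 0.35 and in CX -0.76 ± 0.43, and neither passed (adjusted p = 0.256 and 0.583, limma). The call in BS was lost without any OB sample, either CX sample, HC replicate 2, BS replicate 1 or BS replicate 3, where the log2 fold change ranged from 0.88 to 1.10, and by edgeR with TMM factors (adjusted p = 0.0529), with scaling to total reads (0.117) and without the mean-variance trend (0.0812). Within HC, CX and BS, though not OB, the samples stood in the same order for Atp5g1 and for the summed choroid plexus markers. That sum was 221013, 106583 and 202495 in HC, 8436 and 3427 in CX, and 369458, 77262 and 181640 in BS. In OB, where that sum was lowest, Atp5g1 was as low as in CX. HC replicate 2 and CX replicate 2 were also low for most members, with 72 and 67 of 78 below their mean. How many other genes stood in this order was not counted, and the part of choroid plexus cells in the result was not tested.

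The other c-ring genes did not follow Atp5g1. The mature c subunit is known to be identical in the products of all 3 genes, which differ in the peptide that directs import into mitochondria. Atp5g2 had 380, 410 and 383 normalised reads in OB, 274, 326 and 358 in HC, 304 and 265 in CX, and 272, 270.5 and 250.5 in BS. Every OB sample was above all others, though the difference did not pass (log2 fold change 0.44 ± 0.15 in OB, adjusted p = 0.121, limma). Atp5g3 had 760, 702 and 877 in OB, 645, 593 and 1069 in HC, 754 and 578 in CX, and 934, 817 and 709 in BS, with all regions overlapping (adjusted p = 0.796 among regions, limma). As a share of the reads of the 3 genes, Atp5g1 took 24.2% ± 1.4 in OB, 37.3% ± 6.7 in HC, 27.5% ± 0.38 in CX and 47.1% ± 6.8 in BS (SD), and Atp5g2 took 25.4% ± 2.5, 18.9% ± 4.2, 21.8% ± 1.5 and 12.98% ± 2.1. Every BS sample had a lower Atp5g2 share than every other sample. In BS against the other regions the Atp5g1 share was 47.1% and 29.9% (exact two-sided permutation test, p = 0.0121, n = 3 and 8), which gave 0.0727 after adjustment over the 12 comparisons of genes and regions. The Atp5g2 share in BS reached the smallest p that 165 assignments allow (exact permutation p = 0.00606, adjusted 0.0727). No share passed after adjustment. Shares compare samples only, since the transcripts of these genes differ in length, and how reads shared by near-identical genes were counted is not given in the sources used here.

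**Figure D2:**
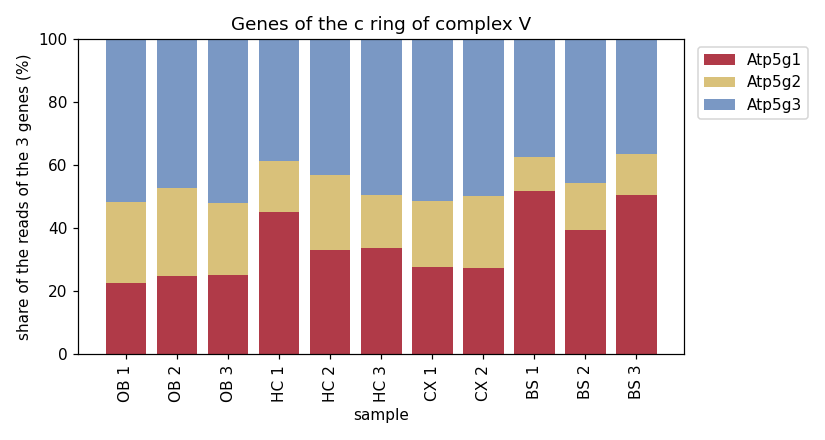
Bars show, for each sample, the percentage of the reads of Atp5g1, Atp5g2 and Atp5g3 that fell in each gene. The Atp5g1 part is smallest in OB and CX, between 22.6% and 27.8%, and largest in BS, between 39.3% and 51.6%.

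Cox8b was lower in OB. It had 0, 0 and 6.46 normalised reads in OB (0, 0 and 12 reads), 53.7, 18.3 and 49.9 in HC, 31.4 and 6.13 in CX, and 47.3, 16.0 and 16.8 in BS. A count of 0 allowed up to 3.26 and 2.37 normalised reads in the first and second OB sample. The OB samples were lowest, except that OB replicate 3 lay just above CX replicate 2, which held 4 reads. Cox8b differed among regions (adjusted p = 0.0124, limma), and its log2 fold change in OB was -3.71 ± 0.76 (SE, adjusted p = 0.0118, limma), a value that depends on the pseudocount because of the samples at 0 (-5.04 with 0.25 and -2.21 with 5 in place of 1). The difference among regions was lost by edgeR (adjusted p = 0.079) and without OB replicate 1 (0.0682) or OB replicate 2 (0.0722). By edgeR on the reads the OB difference did not pass (adjusted p = 0.0681), nor without OB replicate 1 (adjusted p = 0.0861, limma) or OB replicate 2 (adjusted p = 0.0938, limma). The order of samples within HC and CX was again that of the summed choroid plexus markers, whose part was not tested. In BS, replicate 1 was highest for both. BS replicate 2 and BS replicate 3 held the same number of Cox8b reads, so their order came from the size factors.

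Cox7a1 was highest in BS and lowest in OB. It had 3.26, 1.58 and 5.93 normalised reads in OB, 18.7, 4.57 and 26.0 in HC, 11.3 and 7.67 in CX, and 35.7, 34.1 and 42.1 in BS. Every BS sample lay above all others, and OB overlapped with HC through HC replicate 2. The gene differed among regions (adjusted p = 0.0288, limma). Neither its log2 fold change of 2.19 ± 0.67 in BS nor that of -2.17 ± 0.68 in OB passed (adjusted p = 0.0749 and 0.0923, limma). The difference among regions was lost without OB replicate 1, OB replicate 2, BS replicate 1 or BS replicate 3, with adjusted p between 0.0724 and 0.0909 (limma). Counts were low, between 2 and 71 reads a sample. The summed oligodendrocyte markers were also highest in BS and lowest in OB. Within CX the samples stood in the same order for that sum and for Cox7a1, and within OB, HC and BS they did not. In HC the sum was 39458, 38499 and 18324. The part of oligodendrocytes was not tested.

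**Figure D3:**
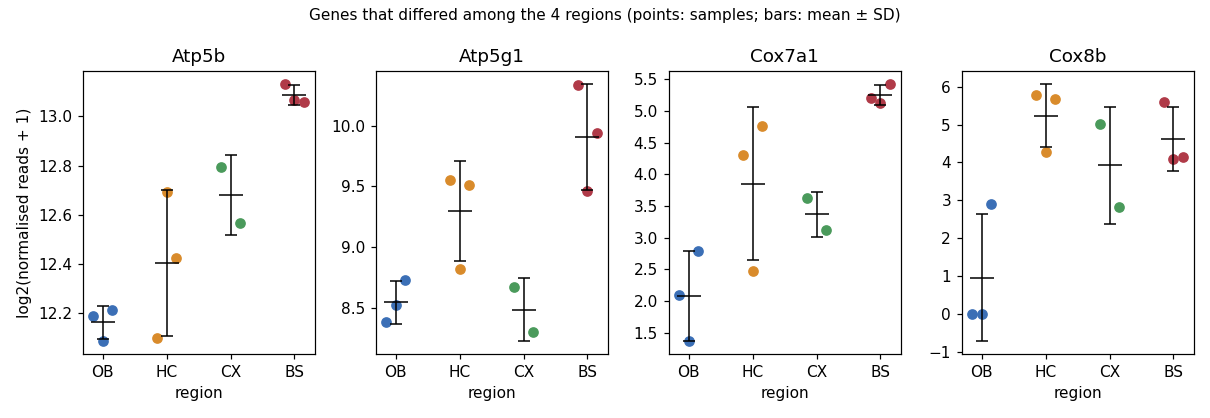
Points are samples and bars the mean ± SD of log2(normalised reads + 1) in each region, on a separate scale for each gene. BS lies clear of the other regions for Atp5b and Cox7a1, HC and BS overlap for Atp5g1, and the OB samples of Cox8b include 2 at 0.

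The remaining tissue forms of complex IV were weakly expressed. Cox6b2, the testis form of subunit 6b, had 41.3, 48.9 and 36.6 normalised reads in OB, 93.1, 22.8 and 86.2 in HC, 18.8 and 30.7 in CX, and 158, 84.1 and 90.5 in BS. BS was high, HC replicate 2 and both CX samples were low, and HC overlapped with BS. Within HC and BS, though not CX, the samples stood in the order of the summed choroid plexus markers, whose part was not tested. Its difference among regions missed the threshold (adjusted p = 0.0654, limma) but passed by edgeR (adjusted p = 0.0497) and DESeq2 (adjusted p = 0.00851). Cox7b2, the testis form of subunit 7b, varied from 1.83 to 35.2 with overlap of all regions. Its log2 fold changes of -0.94 ± 0.75 in HC and 0.70 ± 0.89 in CX rested on few reads (adjusted p = 0.931 and 0.818, limma), and the CX value became -0.21 without CX replicate 1 and 1.62 without CX replicate 2. Cox4i2, known from lung and from cells exposed to low oxygen, had between 0 and 13.8 normalised reads, with 9 reads in CX replicate 2 and 12 in HC replicate 1 as its highest counts. Cox6a2, the heart and muscle form of subunit 6a, had between 0 and 5.03.

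Set against their ubiquitous partners per transcript length, the tissue forms stayed in the minority. Of the subunit 6b transcripts Cox6b2 made up 7.98% to 8.44% in OB, 6.95% to 20.5% in HC, 4.94% to 10.9% in CX and 19.1% to 30.6% in BS. Cox7a1 made up 0.572% to 2.45% of subunit 7a in OB, 2.42% to 8.07% in HC, 3.95% to 4.36% in CX and 11.1% to 16.2% in BS. Cox8b made up at most 0.529% of subunit 8 in OB, 2.29% to 3.62% in HC, 0.711% to 3.28% in CX and 1.94% to 5.07% in BS, so that HC, CX and BS overlapped. For Cox7b2 the share was 0.605% to 6.58%, for Cox4i2 at most 1.70% and for Cox6a2 at most 0.326%. The shares of Cox6b2 and Cox7a1 were thus higher in every BS sample than in any OB or CX sample.

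None of the ubiquitous complex IV genes was called. Cox8a was the most abundant, with 1547, 2031 and 1858 normalised reads in OB, 2364, 1190 and 2031 in HC, 1416 and 1309 in CX, and 1354, 1240 and 1012 in BS. Its log2 fold change was -0.49 ± 0.21 in BS and 0.31 ± 0.24 in HC (adjusted p = 0.188 and 0.931, limma). Cox4i1, a regulatory subunit, had 1280, 1385 and 1146 in OB and between 810 and 1141 elsewhere. All OB samples lay above all others, by a log2 fold change of 0.45 ± 0.14 that did not pass (adjusted p = 0.0918, limma). Cox6b1, which lies between the monomers of the complex IV dimer, had 528 to 704 in OB, 383 to 645 in HC, 313 and 454 in CX and 385 to 448 in BS (log2 fold change 0.46 ± 0.19 in OB, adjusted p = 0.225, limma). Cox6a1 ranged from 829 to 1312, Cox7a2 from 309 to 498 and Cox7b from 427 to 1567, with adjusted p among regions of 0.714, 0.734 and 0.991 (limma). The lowest and the highest sample of Cox7b both came from HC. Cox7a2l, described as a factor of supercomplexes of complexes III and IV, ranged from 262 to 444 (adjusted p = 0.731, limma). Supercomplexes were not measured in these mice. All 11 ubiquitous genes, Ndufa4 among them, had positive log2 fold changes in OB, with a median of 0.18. With a smooth trend on transcript length removed from each sample, 8 of 11 were positive and the median was 0.09, and without HC replicate 2 and CX replicate 2 the count was 10 and the median 0.09.

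In complex V outside these genes, differences stayed below the threshold. Of the 5 F1 genes, Atp5b was called and the other 4 were not. Atp5d, the delta subunit of F1, had 804 to 982 normalised reads in BS and 675 to 793 elsewhere. Atp5f1, of the peripheral stalk, had 1397 to 1551 in BS and 936 to 1339 elsewhere. Both were above all other samples in BS without being called (log2 fold change 0.22 ± 0.12 and 0.36 ± 0.13, adjusted p = 0.304 and 0.124, limma). Atp5f1 shares exon sequence with Wdr77 on the opposite strand, and whether counting used strand is not given in the sources used here. Atp5j2, in the membrane part, had 394 to 474 in OB and 218 to 394 elsewhere (log2 fold change 0.51 ± 0.18, adjusted p = 0.141, limma). Atp5l, also of the membrane part, had 414 to 673 in HC and 293 to 576 elsewhere (log2 fold change 0.33 ± 0.22, adjusted p = 0.915, limma). Atp5s, the coupling factor B and the least abundant of the complex, had 58.6 to 189 (adjusted p among regions = 0.773, limma). The summed level of the complex was 15700 to 16350 in OB, 15635 to 18808 in HC, 16216 to 19826 in CX and 20997 to 23191 in BS. It lay above all other samples in BS, where Atp5b alone made up between 8531 and 8979.

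No gene of complex I was called. Its 34 tested genes ranged in mean level from 95.3 for Ndufb7 to 768 for Ndufa13, an accessory subunit known also as GRIM-19. Ndufa13 had between 608 and 895 normalised reads in all samples (adjusted p among regions = 0.416, limma). The 7 core subunits had a median log2 fold change of -0.07 in OB and 0.10 in BS, and the 27 accessory subunits tested had 0.12 and 0.02. Ndufb11, an accessory subunit, came closest to the threshold (adjusted p = 0.0819, limma), with 500 to 599 in OB, 363 to 605 in HC, 284 and 363 in CX and 354 to 397 in BS. It overlaps exons of Rbm10 on the opposite strand. Ndufb9 was higher in both CX samples, 911 and 762, than in any other, 520 to 665 (log2 fold change 0.50 ± 0.15, adjusted p = 0.326, limma). Ndufa7 had 248 to 351 in OB and 168 to 217 in BS, with log2 fold changes of 0.47 ± 0.22 and -0.39 ± 0.23 (adjusted p = 0.277 and 0.352, limma). Ndufc2 had 424 to 523 in BS and 463 to 814 elsewhere (log2 fold change -0.43 ± 0.17, adjusted p = 0.157, limma). Ndufb3 and Ndufs4 were the lowest of complex I in HC, with 117 to 161 and 150 to 319 normalised reads there (log2 fold change -0.42 ± 0.19 and -0.33 ± 0.25, adjusted p = 0.864 and 0.931, limma). None of these differences passed.

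No gene of complexes II and III was called either. Sdha, the flavoprotein that oxidises succinate, was the most abundant gene of complex II and was highest in CX, with 2880 and 2585 normalised reads against 1572 to 2332 elsewhere. The samples of CX did not overlap with the others, yet the difference did not pass (log2 fold change 0.49 ± 0.18, adjusted p = 0.38, limma). Sdhb, the iron-sulphur subunit, was the least abundant of the 4, with 290 to 500 (adjusted p among regions = 0.455, limma). Uqcrfs1, the Rieske iron-sulphur protein of complex III, ranged from 602 to 891 (adjusted p = 0.946, limma). Uqcrb, a small ubiquinone-binding subunit, ranged from 159 to 326 (adjusted p = 0.557, limma). Uqcr11, another small subunit, had 207 and 129 in CX and 196 to 313 elsewhere, a log2 fold change of -0.62 ± 0.22 (adjusted p = 0.38, limma).

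Taken region by region, the shares of members called lower in OB and higher in BS were near those of all genes. In OB, 1 of 78 members (1.28%) was called, Cox8b lower, where 2.01% of all genes were called lower and 2.57% higher. In BS, 2 members (2.56%) were called higher, Atp5b and Atp5g1, where 2% of all genes were called higher and 3.42% lower. The count in OB was 0 without OB replicate 1 or OB replicate 2 and 2 without HC replicate 2. The count in BS was 0 without any of the OB samples, CX replicate 2, BS replicate 1 or BS replicate 3, 1 without CX replicate 1, HC replicate 2 or BS replicate 2, and 4 without HC replicate 1. In HC, 0 members were called by limma, against 0% of all genes, and 2 members (2.56%) had an unadjusted p under 0.05, against 5.69% of all genes. In CX, 0 members were called by limma, against 0.0144% of all genes, and 7 members (8.97%) had an unadjusted p under 0.05, against 9.89% of all genes. edgeR and DESeq2 on the reads also called 0 members in HC and in CX. A looser rule of the kind used in the study took an unadjusted p under 0.01 with a fold change over 1.5. It gave Cox7a1 and Cox8b lower in OB (2.56% of members, 3.89% of all genes). In BS it gave Atp5b, Atp5g1 and Cox7a1 higher (3.85% of members, 3.98% of all genes). It gave 0 members in HC (1.28% of all genes) and 0 in CX (2.77%). Samples of a region lay wholly above or wholly below all others for 2 members in OB, Atp5g2 and Cox4i1, against 8.17% of all genes. The same held for 0 members in HC (1.54% of genes), for Ndufb9 and Sdha in CX (8.17%) and for Atp5b, Atp5d, Atp5f1 and Cox7a1 in BS (7.89%). In all 8 cases the region was above. Of all genes without overlap, 684 of 1134 in OB, 696 of 1133 in CX and 514 of 1095 in BS were above.

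The precision of the fold changes differed among members. The 95% confidence interval of the fold change against the other regions lay within 1.5-fold in either direction for 31 of 78 members in OB (39.7%, against 14.0% of all genes), 43 in HC (55.1%, against 15.6%), 22 in CX (28.2%, against 8.45%) and 36 in BS (46.2%, against 13.5%). For the other members the interval reached past 1.5-fold. The median SE of members was 0.19 in OB, 0.20 in HC, 0.22 in CX and 0.19 in BS. Over all genes it was 0.35, 0.37, 0.42 and 0.34. Shares within or beyond 1.5-fold therefore depend on precision as well as on the size of differences, and genes of like level were not compared. The estimate itself exceeded 1.5-fold for 3 of 78 members in OB, 2 in HC, 5 in CX and 5 in BS, and for 31.0%, 22.5%, 32.2% and 34.3% of all genes. The median log2 fold change of the members was 0.07 in OB, -0.02 in HC, -0.13 in CX and 0.05 in BS, beside 0.02, 0.02, -0.03 and 0.02 over all genes. In CX, 58 of 78 members were lower than in the other regions and 20 higher, while without HC replicate 2 and CX replicate 2 there were 40 lower and 38 higher. These medians were no larger than the spread between samples in HC, CX and BS, where the SD of the sample medians was 0.28, 0.24 and 0.11, while in OB it was 0.02. That SD covers the samples of the region itself and leaves out the spread of the samples they were compared with. It therefore does not measure the error of the OB median, which became -0.038 without HC replicate 2 and CX replicate 2. The CX value became 0.02 without CX replicate 2 and -0.33 without CX replicate 1.

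**Figure D4:**
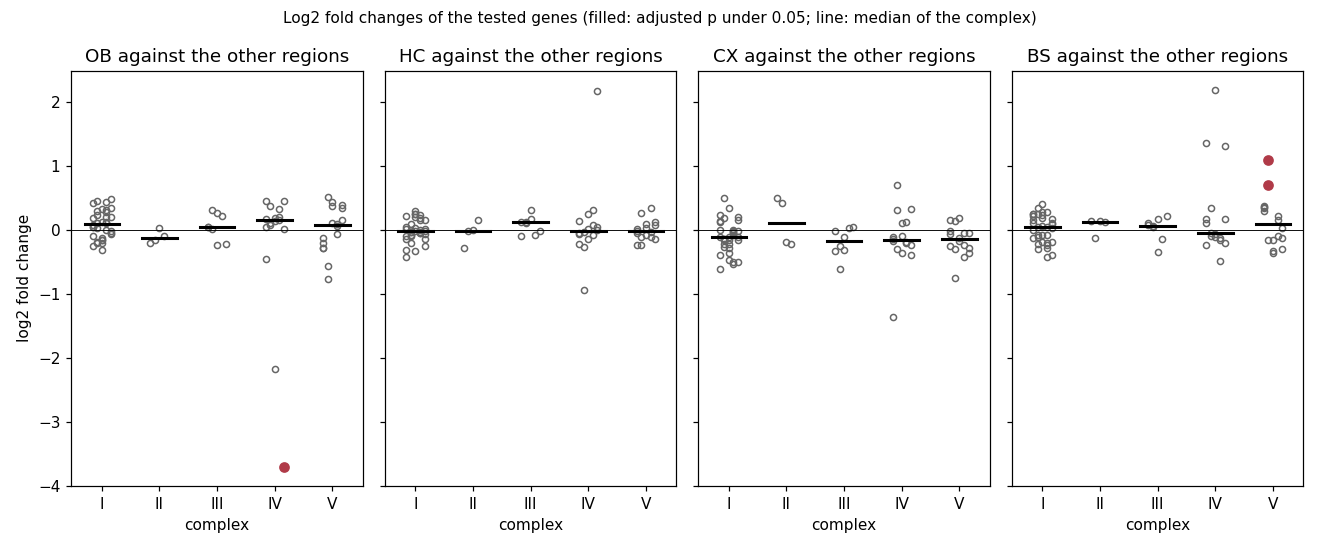
Each point is the log2 fold change of a tested gene in 1 region against the other samples, by complex, with filled points at an adjusted p under 0.05 and lines at the median of the complex. Most points lie within 0.6 of 0, with Cox8b filled in OB and Atp5b and Atp5g1 filled in BS.

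Libraries of the same region differed in the level of most members. Relative to each gene's mean over the samples, the median member deviated by -0.30 on the log2 scale in HC replicate 2 and -0.32 in CX replicate 2, where 72 and 67 of 78 members were below their mean. In HC replicate 3 the median was 0.27, and in the other 8 samples it lay between -0.09 and 0.09. All 3 OB samples had 0.04. The spread was seen in each class of transcript length and was widest for the shortest members. The 25 members with transcripts under 600 nt had medians from -0.45 in CX replicate 2 to 0.42 in HC replicate 3, and the 119 other protein-coding genes of that length ranged from -0.29 in CX replicate 2 to 0.39 in HC replicate 1. The 28 members of 1000 nt or more ranged from -0.21 to 0.20, while the 12539 other genes of that length had medians of at most 0.053. Genes of cytosolic ribosomal proteins, many of them short, ranged from -0.26 to 0.44, and those of mitochondrial ribosomal proteins from -0.24 to 0.22 with the lowest values in CX replicate 2 and HC replicate 2. By region, other protein-coding genes under 600 nt had median log2 fold changes of 0.26 in OB, 0.15 in HC, -0.31 in CX and -0.26 in BS. Members of that length had 0.13, 0.12, -0.22 and -0.10. The part of transcript length in the regional values was not tested beyond this. With the trend on length removed the median of OB turned from 0.07 to -0.013, and without HC replicate 2 and CX replicate 2 it was -0.038.

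**Figure D5:**
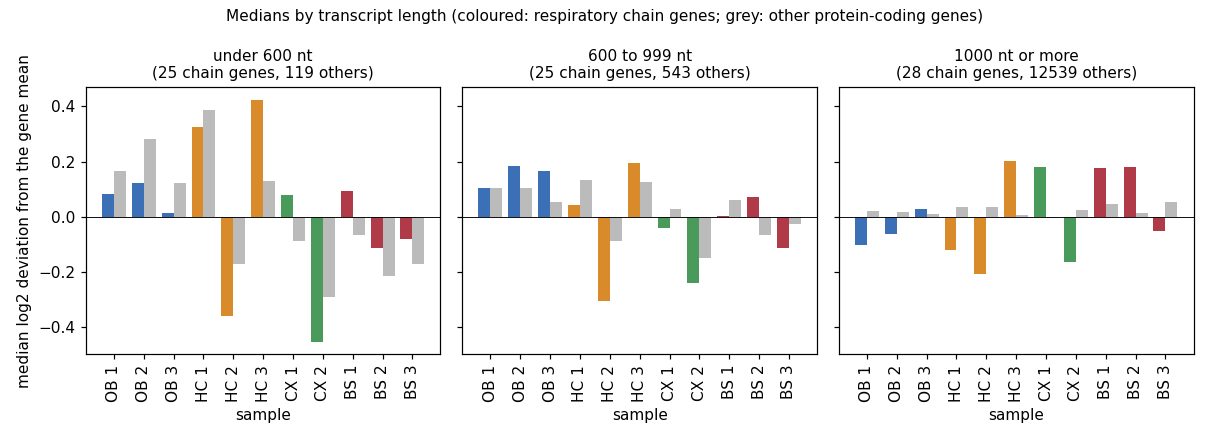
Bars give, for each sample, the median deviation from the gene mean in log2 units, coloured by region for respiratory chain genes and grey for other protein-coding genes, in 3 classes of transcript length. Under 600 nt, chain genes run from -0.45 in CX 2 to 0.42 in HC 3, and the grey bars are likewise below 0 in HC 2 and CX 2.

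Other genes of mitochondrial respiration were compared in the same way. Of the 6 electron carriers and subunits outside the symbol rule, 0 differed among regions by limma. Cycs, cytochrome c, had 512 to 757 normalised reads in OB, 687 to 899 in HC, 794 and 913 in CX and 705 to 1013 in BS (adjusted p = 0.281, limma). Cyc1, the cytochrome c1 of complex III, had 335 to 547 (adjusted p = 0.949, limma), and Ndufab1, the acyl carrier protein of complex I, had 178 to 346 (adjusted p = 0.578, limma). Usmg5 had 224 to 327, Atpif1, the inhibitor of the ATP synthase, 138 to 272, and Atp5sl 15.8 to 109, with adjusted p of 0.805, 0.688 and 0.363 (limma). Of 45 assembly factors tested 0 were called, and of 11 genes of mitochondrial translation 0 were called.

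Of 13 genes of the tricarboxylic acid cycle 2 (15.4%) differed among regions, a share near the 16.5% of all genes. Ogdh, a subunit of the 2-oxoglutarate dehydrogenase complex, had 2186, 1869 and 1539 in BS and 1089 to 1307 elsewhere, with no overlap (log2 fold change 0.63 ± 0.13, adjusted p = 0.0126, limma). Suclg2, of the GTP-forming succinyl-CoA synthetase, had 1351 to 1566 in OB and 643 to 1143 elsewhere (log2 fold change 0.84 ± 0.21, adjusted p = 0.0315, limma). Among 14 regulators of mitochondrial biogenesis 2 (14.3%) differed, again near that share, both of the estrogen-related receptor family. Esrrg had 899, 367 and 581 in BS and 46.6 to 156 elsewhere (log2 fold change 2.70 ± 0.37, adjusted p = 0.000685, limma). Esrrb had at most 4.34 in OB, at most 21.01 in HC, up to 26.4 in CX and 23.2 to 55.7 in BS (adjusted p among regions = 0.0345, limma). The coactivator Ppargc1a ranged from 928 to 1559 (adjusted p = 0.635, limma), and Esrra from 14.6 to 47.5 (adjusted p = 0.817, limma). Gabpa, Nrf1, Tfam, Tfb2m, Polrmt, Polg, Yy1, Gabpb1, Pprc1 and Ppargc1b were not called. Within each region, Esrrg stood in the sample order of the summed choroid plexus markers. That sum was 106583 to 221013 in HC and 77262 to 369458 in BS, while Esrrg was 67.6 to 156 in HC and 367 to 899 in BS. The part of choroid plexus cells was not tested.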

How the data were processed

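RNA of FACS-sorted Aldh1l1-eGFP+ astrocytes was amplified and depleted of ribosomal RNA with the Trio total RNA kit and sequenced in paired ends. The authors aligned reads with STAR (2.5.0a) to mm10, counted them over UCSC transcripts and divided them by DESeq2 (1.20.0) size factors, and deposited 1 signal value per gene and sample. Treatment of multimapping reads and strand is not given in the sources used here. Every deposited signal value (100% within a tolerance of 0.01) was a whole multiple of the value of 1 read. Reads were recovered from this, at 2830746 to 14151670 per sample. Limits at a count of 0 (3 reads) cover counting error only.

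Genes passing edgeR's filterByExpr on the reads (13875) were fitted with limma (3.58.1, mean-variance trend, two-sided) on log2(value + 1) in R 4.3.3, as a mean per region (F test among regions) and as each region against all other samples, with Benjamini-Hochberg adjustment over all genes and a threshold of 0.05. A fold change on this scale understates changes of low genes. Alternatives were edgeR 4.0.16 and DESeq2 1.42.0 on reads, other scalings, pseudocounts and filters, a replicate block and each sample left out. Another 2 alternatives were added after seeing the data, the removal of a lowess trend on log2 transcript length from each sample (the length correction) and leaving out HC replicate 2 and CX replicate 2. Confidence intervals are 95%, come from limma's moderated SE and reflect the spread between samples. The study's rule also required a value over 5 in at least 2 samples of a region. Members and gene lists were chosen with earlier results of these data known. Values were given for each sample for members by rule: the 10 with the lowest F p, the 3 highest and 3 lowest fold changes of each region and those called, the isoform pairs, the c-ring genes, Cox7a2l, Atp5s and the most and least abundant member of each complex; Ndufb7, Atp5d and Atp5f1 were added after their values were seen. Positions, lengths (median of the coding transcripts matched to RefSeq) and overlaps come from GENCODE M21 (GRCm38), which matched 24015 of 24421 symbols and all 82 members; 20 members share exon sequence with a gene on the opposite strand. Upstream windows of 250 bases come from RefSeq, the first listed for each gene, and 66 members had one. Statistics were tested on simulated data.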

Additional observations from a re-analysis of the deposited data

How the results depend on the processing

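Titles number the samples of each region from 1, and the labels do not say whether the number marks a pairing. Correlations of deviations ran from -0.16 to 0.25 over 15 same-numbered pairs (3 over 0.1). Over 30 different-numbered pairs they ran from -0.224 to 0.183 (5 over 0.1). Same-numbered samples of OB and HC had 0.195, 0.074 and 0.25, and different-numbered ones at most 0.0283. Between other regions same-numbered pairs had mixed or negative signs. Deviations sum to 0 within a region, so this check could not settle the question, and the main fit used no pairing. With the replicate block 1 member was called in BS and 1 in OB, and 4 differed among regions. Shares of all genes called are given for the main fit and the study's rule only. Member counts under other settings, here and above, therefore have no such background beside them. The count among regions was 8 by DESeq2 and 22 with scaling to total reads, a scaling that moved the median of all genes by 0.24 in OB, 0.23 in HC, -0.39 in CX and -0.15 in BS; under it the member medians were 0.29 in OB, -0.50 in CX and -0.11 in BS, which lie 0.05, -0.12 and 0.03 from all genes. The count in OB was 2 by the study's rule, 0 by edgeR with TMM or RLE factors, 3 by DESeq2, 4 with a mean for each region and 2 without HC replicate 2 and CX replicate 2. The count in BS was 0 by edgeR with TMM factors, with total reads, without the mean-variance trend and without HC replicate 2 and CX replicate 2; it was 1 by edgeR with RLE factors, with TMM scaling, without a filter and with the length correction, and 4 with a mean for each region. The OB median was 0.051 by edgeR with RLE factors, 0.050 by DESeq2, 0.093 with TMM scaling, -0.013 with the length correction and -0.038 without HC replicate 2 and CX replicate 2. Leaving out each sample in turn gave 1 to 7 members among regions, 0 to 2 in OB, 0 in HC, 0 in CX and 0 to 4 in BS, and medians of 0.02 to 0.10 in OB, -0.13 to 0.12 in HC, -0.33 to 0.02 in CX and -0.02 to 0.10 in BS; without OB replicate 1 or 2 the OB count was 0. The log2 fold change of Cox7b2 in CX was -0.21 without CX replicate 1 and 1.62 without CX replicate 2. Of the other values of named genes, 657 under other settings and 633 with samples left out kept direction and side of the threshold, 24 and 9 passed it, and 17 and 29 no longer passed. Many of these values lay far from the threshold in the main fit, so the numbers that kept their side say little about the calls. The calls of Atp5b and Atp5g1 in BS were lost under several settings, as given above. Libraries of BS were the shallowest of the series apart from BS replicate 1, and Cox7a1, Cox8b, Cox4i2, Cox6a2 and Cox7b2 rested on few reads.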
